A study of Mus musculus with 2 samples.

Results

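The secreted WNT antagonists examined here were 10 genes: *Sfrp1*, *Sfrp2*, *Sfrp4*, *Sfrp5* and *Frzb* of the secreted Frizzled-related protein family, *Dkk1*, *Dkk2* and *Dkk3* of the Dickkopf family, *Wif1* and *Sost*. They were taken by name from a list of secreted WNT inhibitors, with no threshold on their counts, and all 10 were found among the 24421 gene names of the count table. WNT ligands are secreted proteins that bind Frizzled receptors and the co-receptors LRP5 and LRP6 on the cell surface and thereby stabilize β-catenin in the receiving cell. SFRP proteins, FRZB and WIF1 bind WNT ligands outside the cell, whereas DKK1, DKK2 and sclerostin, the product of *Sost*, bind the co-receptors. In the skeleton, WNT signaling through β-catenin restrains chondrocyte differentiation and favors osteoblasts, and in skin it takes part in the formation of the dermis and hair follicles.

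The study compared 1 RNA-Seq library of primary chondrocytes with 1 library of primary dermal fibroblasts, both from newborn mice, the fibroblasts serving as a non-chondrogenic control. Chondrocytes had been freed from rib cartilage with collagenase and used within 2 passages, and fibroblasts had been freed from dorsal skin with collagenase. Genotype, strain, any treatment and the number of animals behind each library were not given in the sources used here. The deposited read counts per gene summed to 18788599 in chondrocytes and 17563724 in dermal fibroblasts.

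Levels are given as counts per 1000000 reads (CPM) of the library size scaled by the TMM method, and levels of different genes are compared only as reads per kilobase of exon per 1000000 reads (RPKM) of the same scaled size. A fold is the ratio of scaled counts after counts under 3 were set to 3, and a gene was counted as higher in a cell type when its fold was over 2 and at least 1 library had more than 3 counts. Values in parentheses after a fold are the 95% Clopper-Pearson interval of the ratio of counts. With 1 library per cell type, no difference had a replicate check, no test was made, and the intervals cover counting error only. The reads carried no molecular identifiers and do not stand for independent molecules, so that the intervals can be too narrow even for counting error. In RNA of whole cultures, fewer cells of a type and less RNA per cell cannot be told apart.

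The labels were first compared with marker genes. All 9 chondrocyte markers were over 2-fold higher in chondrocytes, and their levels summed to 103876 CPM in chondrocytes and 23.9 CPM in dermal fibroblasts. *Col2a1*, the main collagen of cartilage, had 1447098 chondrocyte counts and 0 dermal fibroblast counts, and *Matn1* was also at 0 in dermal fibroblasts. The chondrocyte marker with most counts in dermal fibroblasts was *Sox9*, with 342 counts (18.6 CPM) there and 5045 counts in chondrocytes. Of 7 fibroblast markers, 6 were higher in dermal fibroblasts, and the list summed to 6193 CPM in chondrocytes and 47879 CPM in dermal fibroblasts with *Col1a1* as its most abundant gene in both. Each library thus carried the markers of the cell type on its label.

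The antagonists divided between the cell types. *Frzb*, *Sfrp4* and *Sfrp5* were over 2-fold higher in chondrocytes, 3 of 10 genes beside 10.7% of the 17718 genes with any count. *Sfrp2*, *Dkk2* and *Dkk3* were over 2-fold higher in dermal fibroblasts, 3 of 10 genes beside 13.9% of all genes. *Sfrp1* and *Wif1* were within 2-fold. *Sost* was within it through the floor of 3 counts, which gave 1.37-fold, and passed it with a floor of 1 count, at a log2 fold of 1.04, and *Dkk1* had too few counts for a fold. The whole counting interval lay beyond 2-fold for *Frzb* and *Sfrp5* in chondrocytes, beside 5.88% of all genes, and for *Sfrp2*, *Dkk2* and *Dkk3* in dermal fibroblasts, beside 8.73%. The median log2 fold of the 9 antagonists with a fold was 0.45, which is the value of *Sost* from 4 and 2 counts, beside 0.00 for the 15616 genes with more than 3 counts in at least 1 library. The depth behind these values was uneven, with at least 100 counts in either library for 6 antagonists and under 10 counts in both for *Dkk1* and *Sost*.

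**Figure D1:**
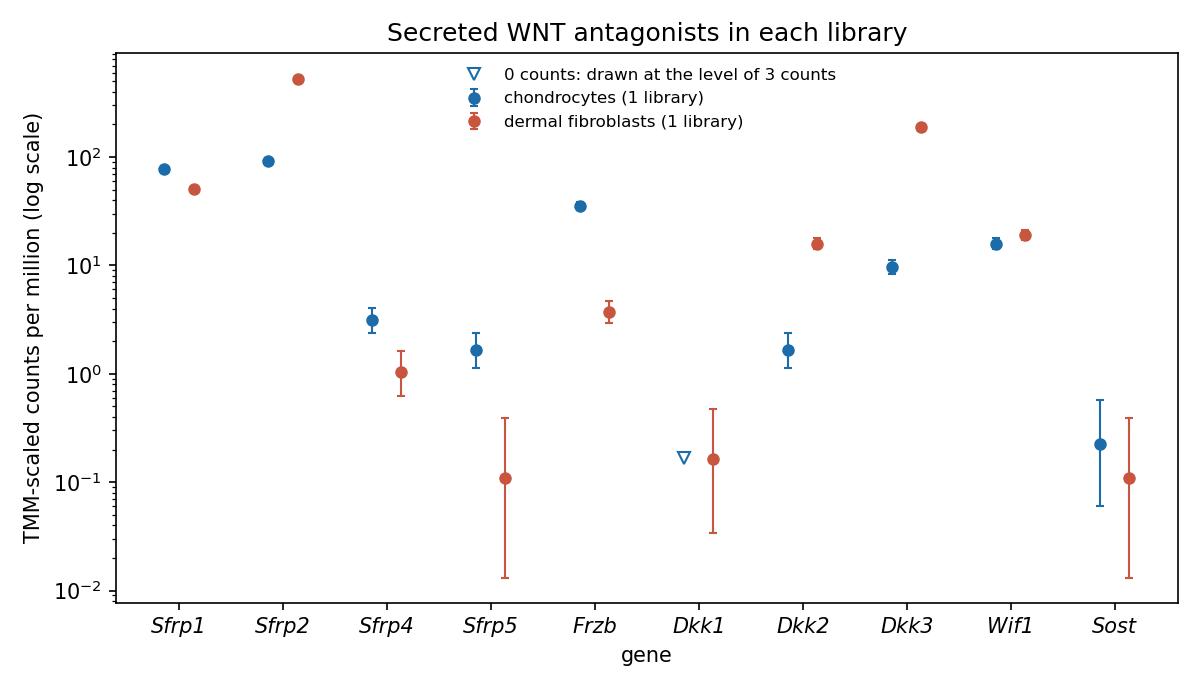
Level of each antagonist in TMM-scaled CPM (log axis) in the chondrocyte and the dermal fibroblast library, 1 library each; points are the library's value, bars its 95% Clopper-Pearson counting interval, and the open triangle marks 0 counts, drawn at the level of 3 counts, 0.167 CPM. *Sfrp2* and *Dkk3* reach 526 and 188 CPM in dermal fibroblasts, and *Frzb* is at 35.6 CPM in chondrocytes against 3.75 CPM.

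Within the SFRP family, which shares a Frizzled-like cysteine-rich domain, *Sfrp2* had the highest level in both libraries. It had 1658 counts (92.5 CPM) in chondrocytes and 9692 counts (526 CPM) in dermal fibroblasts. The level in dermal fibroblasts was 5.69-fold higher (5.40 to 6.0), a log2 fold of -2.51. Ranks covered genes with a count above 0 and an exon length, which 89.1% of the 17718 genes with any count had. Per exon length, *Sfrp2* ranked 1178 of 15048 genes in chondrocytes and 176 of 14991 genes in dermal fibroblasts. It so stood in the top 7.83% of ranked genes in the first library and the top 1.17% in the second. The *Sfrp2* level was thus high in both libraries and higher in dermal fibroblasts. The chondrocyte library also held reads of fibroblast markers, such as 39143 counts of *Col1a1*, and which of its cells carried *Sfrp2* was not tested.

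*Sfrp1*, which encodes a close relative of SFRP2, had 1388 counts (77.4 CPM) in chondrocytes and 927 counts (50.4 CPM) in dermal fibroblasts. Its level was 1.54-fold higher in chondrocytes (1.41 to 1.67), a difference beyond counting error that stayed within 2-fold. The pair therefore differed in opposite directions between the libraries. Within a library, where no scaling between libraries enters, *Sfrp2* exceeded *Sfrp1* per length by 2.43 times (2.26 to 2.61) in chondrocytes and by 21.2 times (19.8 to 22.7) in dermal fibroblasts.

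*Frzb*, also named *Sfrp3* and known for its expression in cartilage, had 638 counts (35.6 CPM) in chondrocytes and 69 counts (3.75 CPM) in dermal fibroblasts. It was 9.50-fold higher in chondrocytes (7.40 to 12.4), a log2 fold of 3.25. Among the antagonists with at least 100 counts in either library, *Frzb* alone was over 2-fold higher in chondrocytes. *Sfrp2* exceeded *Frzb* per length by 3.91 times (3.56 to 4.29) in chondrocytes and by 211 times (167 to 272) in dermal fibroblasts, so that the ratio of the pair differed 54.1-fold between the libraries.

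*Sfrp4* and *Sfrp5* were scarce in both cell types. *Sfrp4* had 56 counts (3.12 CPM) in chondrocytes and 19 counts (1.03 CPM) in dermal fibroblasts, a 3.03-fold higher level in chondrocytes whose interval, 1.77 to 5.40, started below 2-fold. *Sfrp5* had 30 counts (1.67 CPM) in chondrocytes and 2 counts (0.109 CPM) in dermal fibroblasts. The ratio of its scaled counts was 15.4 (3.91 to 133), and with the floor of 3 counts its fold was 10.3, a log2 fold of 3.36. Both genes were higher in the chondrocyte library, and the size of the difference in *Sfrp5* was poorly bounded by its counts, since its log2 fold was 1.62 with a floor of 10 counts.

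The Dickkopf family had few counts in chondrocytes. *Dkk3*, a divergent member of the family that is not a typical co-receptor antagonist, had 174 counts (9.71 CPM) in chondrocytes and 3461 counts (188 CPM) in dermal fibroblasts. It was 19.4-fold higher in dermal fibroblasts (16.6 to 22.7), a log2 fold of -4.28 the largest among the antagonists. Per length it stood in the top 56.0% of ranked genes in chondrocytes and the top 5.99% in dermal fibroblasts. *Dkk3* was therefore in the middle of the ranked genes in chondrocytes and near the top in dermal fibroblasts.

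*Dkk2*, which encodes a ligand of LRP6, had 30 counts (1.67 CPM) in chondrocytes and 292 counts (15.9 CPM) in dermal fibroblasts. It was 9.48-fold higher in dermal fibroblasts (6.50 to 14.3), a log2 fold of -3.24. *Dkk2* and *Dkk3* thus had the same direction at different levels, since *Dkk3* exceeded *Dkk2* per length by 6.38 times (4.31 to 9.74) in chondrocytes and by 13 times (11.6 to 14.7) in dermal fibroblasts. *Dkk1*, the best known co-receptor antagonist of the family, had 0 counts in chondrocytes, which by the floor of 3 counts allows up to 0.167 CPM and by the upper end of the Clopper-Pearson interval 0.206 CPM, and 3 counts (0.163 CPM) in dermal fibroblasts. No difference in *Dkk1* beyond counting error was detectable at this depth. With a floor of 1 count or a pseudocount of 1, *Dkk1* counted as higher in dermal fibroblasts.

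*Wif1*, which encodes a WNT-binding protein outside both families, had 285 counts (15.9 CPM) in chondrocytes and 353 counts (19.2 CPM) in dermal fibroblasts. The ratio of chondrocytes to dermal fibroblasts was 0.829 (0.707 to 0.972), a log2 fold of -0.27. The interval came to include 1 with *Actb* as the scaling, where it was 0.770 to 1.06, and with total counts without the 10 most abundant genes, so that a difference in *Wif1* did not hold beyond counting error under every scaling. *Sost*, known as a product of osteocytes, had 4 counts (0.223 CPM) in chondrocytes and 2 counts (0.109 CPM) in dermal fibroblasts. Its ratio of 2.05 had an interval from 0.294 to 22.7, so that a difference in *Sost* was not detectable at this depth.

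**Figure D2:**
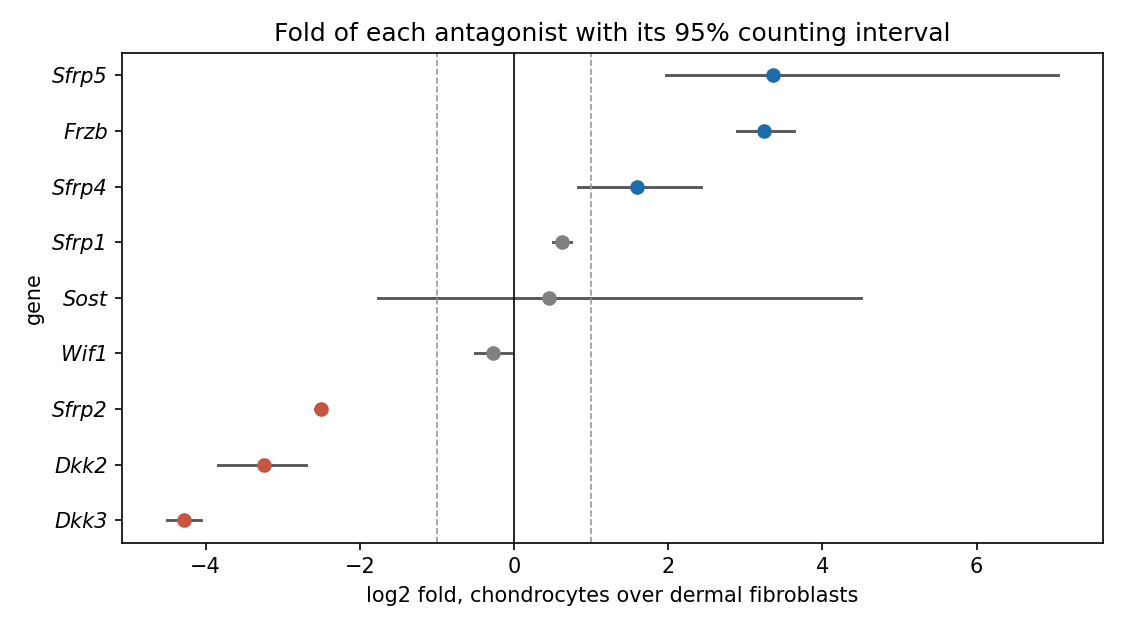
Log2 fold of the 9 antagonists with a fold, chondrocytes over dermal fibroblasts, 1 library each; points are the folds with counts under 3 set to 3, bars the 95% counting intervals of the unfloored ratios, the solid line marks no difference and the dashed lines 2-fold. *Dkk3* at -4.28, *Dkk2* at -3.24 and *Sfrp2* at -2.51 lie on the dermal fibroblast side, *Frzb* at 3.25 and *Sfrp5* at 3.36 on the chondrocyte side.

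Summed over the 10 antagonists, dermal fibroblasts had the higher level. The sum was 4263 counts (238 CPM) in chondrocytes and 14820 counts (805 CPM) in dermal fibroblasts, 3.38-fold higher in the latter (3.27 to 3.50). Without *Sfrp2* the sum was 145 CPM in chondrocytes and 279 CPM in dermal fibroblasts, 1.92-fold higher in the latter (1.83 to 2.01). Without *Sfrp2* and *Dkk3*, a sum chosen after seeing the data, the other 8 genes had 136 CPM in chondrocytes and 90.5 CPM in dermal fibroblasts, 1.5-fold higher in chondrocytes (1.41 to 1.60). The 2 genes left out had the highest levels of the 10 in dermal fibroblasts, and the others included *Dkk2*, which was itself over 2-fold higher there. The sum of the 8 stayed higher in chondrocytes under all 6 scalings. Against TMM these shifted all log2 folds by only -0.14 to 0.12, and the choice of the 8 genes favored this direction. The SFRP family summed to 210 CPM in chondrocytes and 582 CPM in dermal fibroblasts, a 2.77-fold difference (2.66 to 2.87) carried by *Sfrp2* alone. Its other members, *Sfrp1*, *Sfrp4*, *Sfrp5* and *Frzb*, each had the higher level in chondrocytes. The Dickkopf family showed a wider gap, with 11.4 CPM in chondrocytes and 204 CPM in dermal fibroblasts, a 17.9-fold difference (15.6 to 20.7). *Dkk3* had most of the family's counts, and *Dkk2* was itself 9.48-fold higher in dermal fibroblasts. Both families kept the higher sum in dermal fibroblasts under all 6 scalings of the libraries.

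The makeup of the SFRP family differed between the libraries. *Sfrp2* made up 44.0% (Clopper-Pearson interval 42.4 to 45.6) of the family's counts in chondrocytes and 90.5% (89.9 to 91.1) in dermal fibroblasts. *Sfrp1* made up 36.8% (35.3 to 38.4) in chondrocytes and 8.66% (8.13 to 9.20) in dermal fibroblasts. *Frzb* made up 16.9% (15.7 to 18.2) in chondrocytes and 0.644% (0.502 to 0.815) in dermal fibroblasts. Per exon length, the shares of *Sfrp2*, *Sfrp1* and *Frzb* were 58.6%, 24.2% and 15.0% in chondrocytes and 95%, 4.47% and 0.450% in dermal fibroblasts. The chondrocyte library thus held a mixture of 3 family members, whereas the family in the dermal fibroblast library was nearly all *Sfrp2*. In the Dickkopf family *Dkk3* prevailed in both libraries, with 85.3% (79.7 to 89.9) of the counts in chondrocytes and 92.1% (91.2 to 93) in dermal fibroblasts.

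Ordered by RPKM in chondrocytes, *Sfrp2* (43.0), *Sfrp1* (17.7), *Frzb* (11.0), *Wif1* (6.55) and *Dkk3* (2.89) were followed by *Sfrp5* (0.881), *Sfrp4* (0.772), *Dkk2* (0.453) and *Sost* (0.108), with *Dkk1* at 0. Neighbors in this order differed beyond counting error except *Sfrp5* and *Sfrp4*, with a ratio of 1.14 (0.707 to 1.81), and *Sost* and *Dkk1*. In dermal fibroblasts the order was *Sfrp2* (245), *Dkk3* (56.0), *Sfrp1* (11.5), *Wif1* (7.90), *Dkk2* (4.29), *Frzb* (1.16) and *Sfrp4* (0.255), followed by *Dkk1*, *Sfrp5* and *Sost* at 2 or 3 counts each, whose levels did not differ beyond counting error. *Sfrp2* led both orders, *Dkk3* took place 5 in chondrocytes and place 2 in dermal fibroblasts, and *Frzb* took places 3 and 6.

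The other genes of the WNT pathway were described from 8 lists with 81 genes, of which 72 had more than 3 counts in at least 1 library. Of these 72 genes, 13 (18.1%) were over 2-fold higher in chondrocytes, 18 (25%) were higher in dermal fibroblasts and 41 were within 2-fold. Of all 15616 genes with that many counts, 12.1% were higher in chondrocytes and 15.8% in dermal fibroblasts. These shares are the background for the counts of each list below. The median log2 fold of the 72 genes was -0.19, beside 0.00 for the 15616 genes. Over these lists genes past 2-fold occurred in both directions, as among the antagonists.

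**Figure D3:**
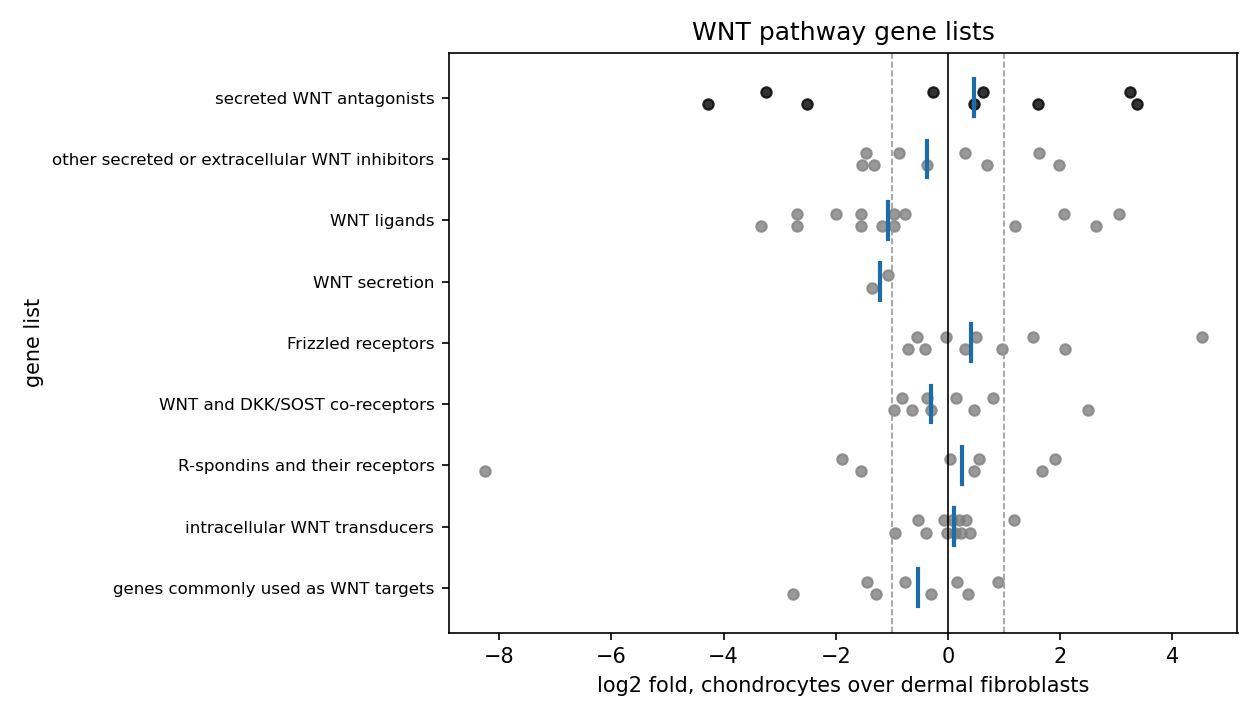
Log2 folds, chondrocytes over dermal fibroblasts, of the genes with more than 3 counts in at least 1 library in the antagonist group (black) and in 8 other WNT pathway lists (gray), 1 library per cell type; each point is 1 gene, blue bars are list medians, the solid line marks no difference and the dashed lines 2-fold. The point farthest to the left is *Lgr5* at -8.26, the point farthest to the right is *Fzd9* at 4.52, and the ligand list has a median of -1.07.

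Among 9 measured genes of the list of other secreted or extracellular inhibitors, 2 were higher in chondrocytes and 3 in dermal fibroblasts. The median log2 fold was -0.38, which is the value of *Cer1*, named after its values were seen, from 2 and 4 counts and the floor of 3. *Igfbp4*, which encodes an IGF-binding protein also described to block LRP6, had 5475 chondrocyte counts and 1432 dermal fibroblast counts, 3.93-fold higher in the first (3.70 to 4.16). *Notum*, the enzyme that removes the lipid from WNT ligands, had 105 and 35 counts, 3.08-fold higher in chondrocytes (2.08 to 4.66). *Apcdd1*, a membrane-bound inhibitor, had 396 chondrocyte counts and 1123 dermal fibroblast counts, 2.76-fold higher in the latter (2.46 to 3.10). *Tpbg* was 2.90-fold (2.61 to 3.22) and *Nbl1* 2.48-fold (2.25 to 2.74) higher in dermal fibroblasts, and *Gpc4*, with 1259 and 2374 counts, was within 2-fold. The genes of this list, whose action on WNT signaling was not examined here, were therefore also divided between the libraries.

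The ligands that these proteins oppose were higher in dermal fibroblasts as a sum. The 19 WNT genes summed to 58.6 CPM in chondrocytes and 114 CPM in dermal fibroblasts, 1.94-fold higher in the latter (1.8 to 2.09). Of 14 measured ligands, 4 were higher in chondrocytes and 7 in dermal fibroblasts, with a median log2 fold of -1.07 that rested in part on *Wnt7a*, with 0 and 7 counts. With the whole interval beyond 2-fold, the numbers of higher ligands were 3 in chondrocytes and 4 in dermal fibroblasts. The number in dermal fibroblasts was 5 with a floor of 10 counts and 9 with total counts. The size of the lean of ligand numbers toward dermal fibroblasts thus depended on genes of few counts and on the scaling. *Wnt5a*, the ligand with most counts in both libraries and best known for signaling without β-catenin, had 473 chondrocyte counts and 829 dermal fibroblast counts, a 1.71-fold higher level in the latter (1.52 to 1.91). It was thus within 2-fold.

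Other ligands differed more. *Wnt11* had 193 chondrocyte counts and 32 dermal fibroblast counts, 6.19-fold higher in the first (4.25 to 9.31). *Wnt16* had 34 chondrocyte counts and 354 dermal fibroblast counts, 10.1-fold higher in the latter (7.12 to 14.9). *Wnt4* was 6.43-fold higher in dermal fibroblasts (5.0 to 8.38) and *Wnt9a* 2.95-fold (2.26 to 3.88). The other ligands counted as higher in chondrocytes were *Wnt5b*, *Wnt7b* and *Wnt10b*, and the other ligands counted as higher in dermal fibroblasts were *Wnt2*, *Wnt2b*, *Wnt6* and *Wnt7a*, each under 100 counts and named after their values were seen. The intervals of *Wnt2*, *Wnt2b* and *Wnt7a* began below 2-fold, at 1.82, 1.39 and 1.4, as did that of *Wnt5b* on the chondrocyte side, at 1.53. Both genes for ligand secretion were higher in dermal fibroblasts, *Wls*, the carrier of WNT proteins to the cell surface, by 2.55-fold (2.42 to 2.68), and *Porcn*, the enzyme that attaches their lipid, by 2.11-fold (1.70 to 2.62), of which *Porcn* came within 2-fold when scaled by *Actb*.

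Set against the ligands per length, the summed RPKM of the 10 antagonists was 6.34 times that of the 19 WNT genes in chondrocytes and 14.3 times in dermal fibroblasts. Without *Sfrp2* these ratios were 3.07 and 3.56. The wider excess of antagonists over ligands in dermal fibroblasts was therefore mostly that of *Sfrp2*.

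Among the receptors, no Frizzled gene was over 2-fold higher in dermal fibroblasts, beside 15.8% of the 15616 genes. In chondrocytes 3 of 10 were higher, beside 12.1%. *Fzd9* had 648 chondrocyte counts and 29 dermal fibroblast counts, 23.0-fold higher in the first (15.8 to 34.5). *Fzd6* was 4.22-fold higher (3.35 to 5.37) and *Fzd8* 2.85-fold (2.41 to 3.39). The genes with most counts were close between the libraries, *Fzd2* with 1481 and 2241 counts, *Fzd1* with 1190 and 1633, and *Fzd7* with 1297 and 940. The summed level of the 10 genes was 370 CPM in chondrocytes and 340 CPM in dermal fibroblasts, a ratio of 1.09 that became 0.991 when the libraries were scaled by total counts. The median log2 fold of the list was 0.41. The summed level thus depended on the scaling, whereas the median stayed above 0, from 0.27 to 0.53, under all 6 scalings.

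The co-receptors are bound by DKK1, DKK2 and sclerostin. *Lrp6* had 2955 chondrocyte counts and 1740 dermal fibroblast counts, 1.74-fold higher in the first (1.64 to 1.85), and *Lrp5*, named after its values were seen, had 1281 and 1628 counts. *Lrp4*, which binds sclerostin, had 2134 chondrocyte counts and 391 dermal fibroblast counts, 5.61-fold higher in the first (5.03 to 6.26). It was the 1 gene past 2-fold among the 9 of this list, whose median log2 fold was -0.31. Of the 15616 genes, 12.1% were higher in chondrocytes and 15.8% in dermal fibroblasts. With total counts as the scaling, 1 gene of the list also passed 2-fold toward dermal fibroblasts. *Ptk7* was 1.76-fold (1.68 to 1.84) and *Ryk* 1.56-fold (1.49 to 1.64) higher in dermal fibroblasts. *Kremen1* and *Kremen2*, which encode receptors for DKK1 and DKK2 and were named after their values were seen, had 962 and 1934 counts and 3 and 4 counts in chondrocytes and dermal fibroblasts. *Lrp5* and *Lrp6* were thus within 2-fold between the libraries.

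R-spondins and their LGR receptors, which strengthen WNT signaling, contained the largest fold of the lists. *Lgr5*, widely used as a stem cell marker, had 9 chondrocyte counts and 2831 dermal fibroblast counts, 306-fold higher in the latter (161 to 670). *Lgr4* was 3.18-fold higher in chondrocytes (2.94 to 3.44) and *Lgr6* 2.94-fold higher in dermal fibroblasts (2.18 to 4.01). *Rspo3* was 3.75-fold higher in chondrocytes (3.16 to 4.46) and *Rspo1* 3.73-fold higher in dermal fibroblasts (2.63 to 5.39). The list also held *Rnf43* and *Znrf3*, which encode neither R-spondins nor LGR receptors and were named after their values were seen. Of the 8 measured genes of the list, which included *Znrf3*, 2 were higher in chondrocytes and 3 in dermal fibroblasts. The median log2 fold of these 8 genes was 0.25. It lay between *Rspo2*, with 29 and 29 counts, and *Rspo4*, with 4 and 0 counts and a value set by the floor. Both were named after their values were seen.

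Of 12 intracellular transducers, 11 were within 2-fold, beside 72.1% of the 15616 genes, among them *Ctnnb1*, the gene for β-catenin, with 16769 counts in chondrocytes and 14654 in dermal fibroblasts, *Csnk1a1* with 4805 and 3953, and *Gsk3b* with 1760 and 2619. *Ctnnbip1*, an inhibitor of the binding of β-catenin to TCF factors, was 2.25-fold higher in chondrocytes, with an interval from 1.93 to 2.62. The level of *Dvl2*, a gene picked once its values were known, was 1.92-fold higher in dermal fibroblasts (1.74 to 2.12). The median log2 fold of the transducers was 0.10, and -0.03 when scaled by total counts, which also put 1 transducer past 2-fold toward dermal fibroblasts.

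Of 8 measured genes commonly used as WNT targets, 3 were higher in dermal fibroblasts and none in chondrocytes, beside 15.8% and 12.1% of the 15616 genes. The median log2 fold of the targets was -0.54. Under scaling by *Actb*, 1 target was higher in chondrocytes. *Nkd2* had 164 chondrocyte counts and 1150 dermal fibroblast counts, 6.83-fold higher in the latter (5.79 to 8.09). *Axin2*, the target most used as a readout of β-catenin signaling, had 69 and 194 counts, 2.74-fold higher in dermal fibroblasts (2.07 to 3.66). *Lef1* was 2.44-fold higher there, with an interval from 1.93 to 3.10. The other 5 targets were within 2-fold and lay on both sides. *Myc* was 1.84-fold (1.71 to 1.99) and *Ccnd1* 1.11-fold (1.05 to 1.17) higher in chondrocytes, as was *Nkd1*, named after its values were seen, by 1.28-fold (1.14 to 1.44). *Cd44* was 1.23-fold higher in dermal fibroblasts (1.18 to 1.29), and *Tcf7*, also named after its values were seen, 1.71-fold (1.4 to 2.08). The higher summed antagonist level of dermal fibroblasts, carried by *Sfrp2* and *Dkk3*, thus stood beside higher *Axin2* and *Nkd2*, with no test of a link between them.

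Markers of other cell types also differed between the libraries, and their part in the antagonist levels was not tested. The most abundant gene of a list is here the gene with most counts. On the chondrocyte side, beside *Frzb*, *Sfrp4* and *Sfrp5*, 5 of 6 markers of hypertrophic chondrocytes were higher, with 868 CPM summed in chondrocytes and 104 CPM in dermal fibroblasts, and *Col10a1* and *Pth1r* as the most abundant genes of the first and the second library. Perichondrium, tendon and joint markers were higher for 5 of 6 genes, with 234 and 28.1 CPM and *Thbs4* as the most abundant. Osteoblast and osteocyte markers were higher for 5 of 7 measured genes, with 54.2 and 10.6 CPM and *Alpl*, which hypertrophic chondrocytes also express, as the most abundant. *Mepe*, an osteocyte marker, was at 0 in both libraries, *Fgf23* was at 0 in chondrocytes and *Bglap* at 0 in dermal fibroblasts, beside the 4 and 2 counts of *Sost*.

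Skeletal muscle markers were higher in chondrocytes for 5 of 9 genes, and summed to 1648 CPM in chondrocytes and 1214 CPM in dermal fibroblasts, with *Myh3* and *Actc1* as the most abundant genes. Both libraries therefore carried muscle transcripts.

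On the dermal fibroblast side, beside *Sfrp2*, *Dkk2* and *Dkk3*, markers of several skin cell types had higher summed levels. Of 9 dermal papilla and condensate markers, 3 were higher in chondrocytes and 5 in dermal fibroblasts, with sums of 128 and 193 CPM; *Trps1* was the most abundant in chondrocytes and *Crabp1*, with 11 and 1786 counts, in dermal fibroblasts. This list shares *Lef1* and *Rspo3* with the WNT lists. Of 6 smooth muscle markers, 1 was higher in chondrocytes and 4 in dermal fibroblasts, with 851 and 1959 CPM and *Acta2*, which cultured fibroblasts also express, as the most abundant. Of 6 adipocyte markers, 4 were higher in dermal fibroblasts, with 136 and 342 CPM and *Fabp4* as the most abundant. Genes of the dermal papilla and smooth muscle lists thus passed 2-fold in both directions.

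Of 7 measured keratinocyte markers, 5 were higher in dermal fibroblasts, with sums of 9.09 CPM in chondrocytes and 257 CPM in dermal fibroblasts. *Krt10* was the most abundant in chondrocytes and *Krt14*, with 17 and 1939 counts, in dermal fibroblasts. Of 6 melanocyte markers, 5 were higher in dermal fibroblasts, with 9.76 and 61.9 CPM and *Mitf* as the most abundant, and *Dct* and *Tyrp1* were at 0 in chondrocytes. Epidermal and pigment cell transcripts were thus present in the dermal fibroblast library. Endothelial markers were higher there for 4 of 5 genes, with 13.3 and 42.5 CPM and *Pecam1* and *Kdr* as the most abundant genes, and macrophage markers for 1 of 7, with 110 and 172 CPM and *Lyz2* as the most abundant.

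The genes with levels most like each antagonist were sought among genes with at least 100 counts in either library, by the distance between log2(CPM + 1) values over the 2 libraries. *Frzb* was closest to *Bambi*, with 595 and 69 counts in chondrocytes and dermal fibroblasts, and *Penk*, with 636 and 63, both at a distance of 0.10. *Sfrp2* was closest to *Wisp1*, with 1843 and 9940 counts, and *Col5a3*, with 1790 and 8927, both at 0.16. *Dkk2* was closest to *Bace2* at 0.03 and *Trim30a* at 0.12, and *Dkk3* to *Megf6* at 0.31 and *Pdpn* at 0.35. A number of genes shared the levels of *Sfrp1*, closest to *Mid1* and *Fnta*, and of *Wif1*, closest to *Suv420h2* and *Helb*: 144 and 273 genes lay within a distance of 0.25, against 2 for *Sfrp2*, 4 for *Frzb*, 12 for *Dkk2* and 0 for *Dkk3*. With 2 libraries such likeness describes a pair of levels alone.

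The antagonist genes lie apart from each other on the genome. On GRCm38.p6, the build of the mapping, *Sfrp2* spans chr3:83765750-83774314 and *Dkk2* chr3:132085266-132180304, *Frzb* spans chr2:80411970-80447396 and *Sfrp1* chr8:23411383-23449632. *Dkk3* spans chr7:112116019-112159482, *Sfrp4* chr13:19623175-19632825, *Wif1* chr10:121034004-121100642 and *Sost* chr11:101962458-101967015. *Sfrp5* spans chr19:42197971-42202252 and *Dkk1* chr19:30545876-30549496. None of the 10 genes overlapped another gene of the RefSeq table.

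Promoter sequences from RefSeq (GRCm38.p6) matched 7 of the 10 genes, all but *Sfrp1*, *Sfrp4* and *Dkk3*. The listed start of *Sfrp2* lies inside the span of the gene, so that all 250 bases of its window do as well. The 250 bases before the listed start were searched on both strands for the TATA box letters TATAAA, the TCF/LEF letters CTTTGAT or their variant CTTTGAA, the SOX letters ACAATG or the related AACAAAG, the GC box letters GGGCGG, and the E boxes CACGTG and also CAGCTG. A position counts the bases from the first base of a match to the start, and no matches overlapped. GGGCGG was found in *Sfrp5* at -43, in *Frzb* at -51, in *Dkk2* at -60 and -17 and in *Wif1* at -197 and, on the other strand, at -82, and in 32.7% of 32851 promoters. TATAAA was found in *Dkk2* at -32, *Dkk1* at -54 and, on the other strand, *Wif1* at -232, and in 12.4% of all promoters. *Dkk1* also held CTTTGAA at -117 (4.46% of all promoters) and AACAAAG, on the other strand, at -98 (5.03%), *Wif1* held CACGTG at -210 (6.02%), and *Frzb* held CAGCTG at -17 (13%). CTTTGAT (3.21%) and the letters ACAATG (10.7%) were in none of the 7 windows, and *Sfrp2* and *Sost* had no match. A match or its lack describes these letters in this window and nothing more.

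The windows of *Frzb* and *Sfrp5*, which were higher in chondrocytes, and of *Dkk2*, higher in dermal fibroblasts, are printed 5′ to 3′ on the strand of the gene, with the GC box, the TATA box and the E box letters in capitals. They are chr2:80447397-80447646 on the minus strand for *Frzb*, chr19:42202253-42202502 on the minus strand for *Sfrp5* and chr3:132085042-132085291 on the plus strand for *Dkk2*, whose last 26 bases fall inside the listed span of the gene. Their GC content was 64.4%, 59.6% and 55.6%, beside a median of 52.4% over all promoters. The pair from the genes higher in chondrocytes shared GGGCGG with *Dkk2*, and *Dkk2* differed from both in having TATAAA.
Frzb: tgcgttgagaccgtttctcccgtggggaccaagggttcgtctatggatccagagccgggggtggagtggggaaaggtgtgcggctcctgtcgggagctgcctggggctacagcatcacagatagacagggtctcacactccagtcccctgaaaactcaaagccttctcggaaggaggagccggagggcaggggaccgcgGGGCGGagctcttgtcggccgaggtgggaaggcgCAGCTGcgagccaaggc
Sfrp5: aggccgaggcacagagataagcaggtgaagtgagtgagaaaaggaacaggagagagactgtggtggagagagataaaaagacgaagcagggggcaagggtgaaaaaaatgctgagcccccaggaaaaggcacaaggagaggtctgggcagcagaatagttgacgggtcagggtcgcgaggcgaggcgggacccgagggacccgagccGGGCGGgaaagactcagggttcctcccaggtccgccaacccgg
Dkk2: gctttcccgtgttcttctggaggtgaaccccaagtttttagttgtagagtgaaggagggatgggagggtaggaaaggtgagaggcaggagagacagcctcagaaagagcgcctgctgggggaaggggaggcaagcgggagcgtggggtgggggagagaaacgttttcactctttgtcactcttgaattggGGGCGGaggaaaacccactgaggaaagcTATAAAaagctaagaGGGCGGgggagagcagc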

How the data were processed

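The data were the read counts per gene that the authors deposited for 1 library of chondrocytes and 1 of dermal fibroblasts. Per the submitters' processing notes, which name CASAVA 1.8.2, TopHat2 2.0.13, Bowtie2 2.2.3 and SAMtools 0.1.19, single-end reads of stranded mRNA libraries were mapped to mm10. The program, annotation and strand setting of the counting were not given in the sources used here. The deposited counts were whole numbers, not scaled for library size, and every value column was matched to a sample.

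TMM factors were computed with edgeR 4.0.16 in R 4.3.3, and folds, shares and Clopper-Pearson intervals with pandas 2.3.3, scipy 1.17.1 and numpy 2.4.6 under Python 3.11.15. Counts under 3 were set to 3 for folds. Figures were drawn with matplotlib 3.10.9. Exon lengths were those of GENCODE vM1, used as lengths only, and positions and promoters came from RefSeq for GRCm38.p6. Calculations were tested on simulated data.

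Named genes were the 10 antagonists; in each WNT list, genes with at least 100 counts in either library and a fold over 2, and the 3 genes with most counts; in each marker list, the most abundant gene of each library and markers at 0; and the 2 genes most like each antagonist with at least 100 counts. 1 marker list is not reported here. Members and lists were chosen with earlier results of these data known. Alternatives were 5 other scalings (total counts, DESeq2 1.42.0 size factors, upper quartile, total counts without the 10 most abundant genes, *Actb*), a pseudocount of 1 or floors of 1 or 10 counts, a filter that kept genes reaching 10 counts, a threshold of 4-fold, and the requirement that the whole interval lie beyond 2-fold. Protein sequences were not used here.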

Additional observations from a re-analysis of the deposited data

How the results depend on the processing

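Neither cell type had a replicate, so leaving out a replicate was not possible. No paired analysis was possible because only 1 library was made per cell type. Against TMM, scaling by total counts shifted all log2 folds by -0.14 and scaling by *Actb* by 0.12, and *Sfrp1* and *Sfrp2* then had log2 folds of 0.49 and -2.64 with total counts and 0.74 and -2.39 with *Actb*, outside their narrow counting intervals. *Sfrp5* had 1.62 with a floor of 10 counts, which lies above its 2 counts in dermal fibroblasts. Of 71 log2 folds of the antagonists under alternatives, these 5 lay outside the interval and 0 reversed a fold over 2. Members counted as higher ranged from 2 to 4 in chondrocytes, where the stricter rules left out *Sfrp4*, and from 3 to 4 in dermal fibroblasts. The gene added in dermal fibroblasts was *Dkk1*, with a floor of 1 count or a pseudocount of 1. Of all genes, 2876 were higher in chondrocytes and 2846 in dermal fibroblasts with a pseudocount of 1, which lets genes of few counts pass. Chondrocytes had 50.3% of these calls, against 48.0% with a floor of 1 count and 43.3% in the main values. With total counts (1583 and 2847) the share was 35.7%, and the cause of these shifts in share was not tested. With a fold over 4, 713 genes were higher in chondrocytes and 929 in dermal fibroblasts, and 6 and 6 genes of the WNT lists. With the whole interval beyond 2-fold, these numbers over all genes were 1041 and 1546. Without *Sfrp2* the summed levels were 145 and 279 CPM, and without *Sfrp2* and *Dkk3*, an alternative chosen after seeing the data, 136 and 90.5 CPM. Without length, 4 of 20 places in the orders of level changed. Depth limits *Dkk1*, *Sost* and *Sfrp5*, and genes with few counts in general.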
